A study of Mus musculus with 6 samples.

Results

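Six4 and Six5, of the sine oculis homeobox family, and Eya1, Eya2, Eya3 and Eya4, of the eyes absent family, are followed here. The 6 genes were chosen by name, and they are 6 of the 25308 genes with a count in the series. Each was measured by summing the estimated counts of its annotated transcripts in every library. RNA was sequenced from C2C12 cells, a mouse myoblast line derived from satellite cells of injured muscle, as polyA RNA from 2 libraries in each of 3 groups. Myoblasts were harvested close to confluence, before differentiation. Myotubes, the multinucleated cells formed by fusion, and reserve cells, the mononucleated cells that stay behind, both came from cultures kept 7 days in DMEM with 2% horse serum and were parted from each other by mild trypsinization, so a library of either can hold some RNA of the other. The methods of the study give a shorter time for mature cultures than the sample descriptions. All groups come from 1 line with no gene altered, and the submitters call the libraries biological replicates, although the sources used here do not say whether they came from separate cultures. If they did not, the p-values measure a spread that is partly technical. Library totals ran from 15658875 to 20055078 estimated counts.

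Sine oculis proteins bind DNA through a homeodomain and a conserved domain beside it that also binds partners, and many of their sites in muscle genes carry a sequence called MEF3. Eya proteins do not bind DNA themselves. They join sine oculis proteins through the conserved Eya domain at their carboxyl end, which also has phosphatase activity, and turn those complexes into activators, whereas Dach and Groucho (Tle) proteins are tied to repression. In muscle the pathway acts upstream of Myf5 and Myog and of fast-fibre genes in the embryo, and also in satellite cells and regenerating muscle.

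Myotube and cycling markers ran as the myoblast and myotube names say, the reserve cell libraries also held myotube marker RNA, and markers of reserve or satellite cells did not set reserve cells above myoblasts. The summed level of 10 myotube markers was 180 to 185 CPM (counts scaled for library size, with TMM factors) in myoblasts, 31535 to 32345 in myotubes and 8250 to 8268 in reserve cells, and 10 of 10 were called higher in both day 7 groups. The 8 markers of cycling cells summed to 2095 to 2106 CPM in myoblasts, 159 to 174 in myotubes and 820 to 830 in reserve cells, and 7 fibroblast and matrix genes to 9442 to 9449, 3488 to 3652 and 18158 to 18614. The 8 reserve or satellite-like markers summed to 906 to 917 CPM in myoblasts, 305 to 310 in myotubes and 773 to 774 in reserve cells. Of these, 7 were called lower in myotubes than in reserve cells, but against myoblasts 2 were called higher in reserve cells and 3 lower (Id3, Myf5 and Hey1). Of 4 leukocyte markers, Ptprc and Adgre1 were at 0 counts in all 6 libraries, Itgam was at 0 in myoblasts and called higher in both day 7 groups, and Cd68 was called lower in myotubes than in myoblasts, with the 4 summing to at most 2.40 CPM. Of 4 neural markers, Sox10 and Neurod1 were at 0 counts throughout, while Tubb3 (166 and 157 CPM in myoblasts, 17.0 and 15.1 in myotubes, 28.9 and 30.1 in reserve cells) and Map2 were called lower in both day 7 groups than in myoblasts. The 3 endothelial markers summed to at most 0.759 CPM. The myotube, reserve, cycling, matrix and neural sums move with the groups beside every result below, and their part in those results was not tested. In bulk RNA, fewer cells of a type and less RNA per cell cannot be told apart.

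Over all 15467 genes tested with edgeR's quasi-likelihood test and Benjamini-Hochberg adjustment, most genes were called between myotubes and myoblasts, so a called member is not unusual by itself. A gene counts as called at an adjusted p under 0.05. Scaling by library totals in place of TMM moved the median over all genes from a log2 fold change of 0.00 to −0.27 between myotubes and myoblasts, and from −0.01 to −0.21 between myotubes and reserve cells. It also lowered the share of called genes that were higher from 49.96% to 36.6% in the former comparison and from 48.85% to 34.09% in the latter. The 3 comparisons share libraries, so their counts are not independent of each other.

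In myotubes, 4 of the 6 members were lower than in myoblasts (Six4, Six5, Eya1 and Eya2), 0 were higher, and Eya3 and Eya4 did not pass the test. Over all genes tested, 65.3% were called in this comparison, 32.7% as lower and 32.6% as higher. In reserve cells against myoblasts, Six4 and Eya4 were called higher and Eya1 and Eya2 lower, beside 46.1% of all genes called, 24.3% as higher and 21.8% as lower. In myotubes against reserve cells, Six4, Six5, Eya1 and Eya4 were called lower, beside 55.6% of all genes called, 28.4% as lower and 27.2% as higher. The median log2 fold change over the 6 members was −0.86 for myotubes against myoblasts, beside 0.00 over all genes tested, 0.04 for reserve cells against myoblasts, beside 0.01, and −0.46 for myotubes against reserve cells, beside −0.01. With Eya2 set at its bound, or left out where both groups are at 0, these medians were −0.86, 0.04 and −0.56. Eya2 passed the filter on low counts only through the myoblasts, where it is high, so its place among the tested members is not independent of its difference.

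**Figure D1:**
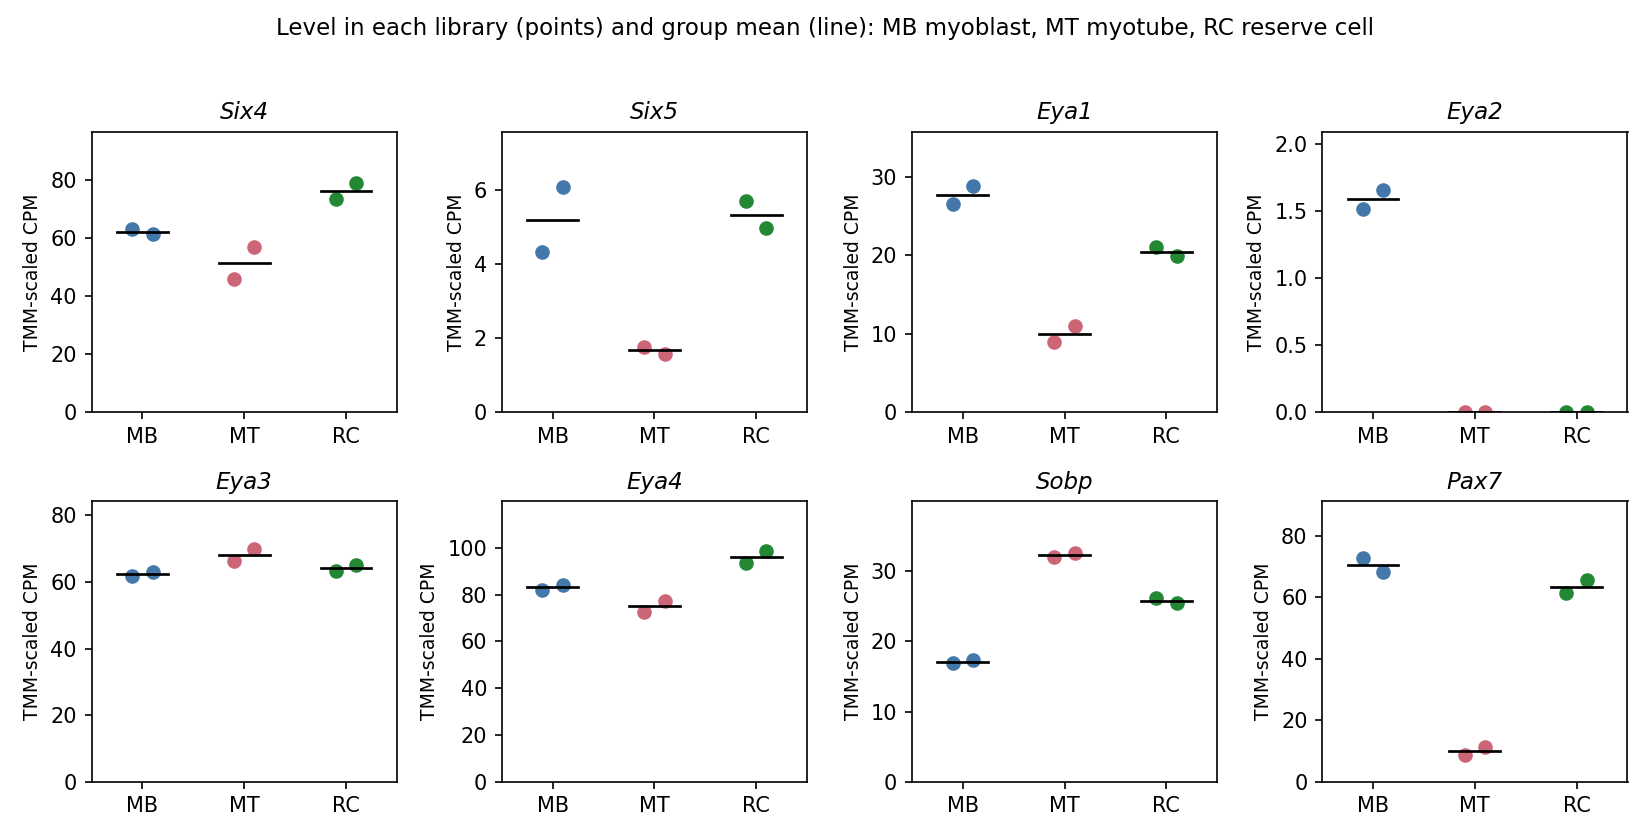
Level of each of the 6 members and of Sobp and Pax7 in the 6 libraries, in TMM-scaled CPM on a linear axis that starts at 0. Points are libraries and lines are group means. Six5 and Eya1 are lowest in myotubes, Eya2 has counts in myoblasts only, and Eya3 stays between 61.8 and 69.9 CPM.

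Six4, a homeodomain factor with a role in muscle development, lay on chromosome 12 (chr12:73099609-73113456, minus strand, GRCm38). It was at 63.0 and 61.3 CPM in myoblasts, 45.9 and 56.9 in myotubes, and 73.4 and 78.8 in reserve cells. The reserve cells were highest and the myotubes lowest, and no groups overlapped. Between myotubes and reserve cells the log2 fold change was −0.56 (95% interval −0.80 to −0.32, adjusted p = 0.00194 in edgeR, n = 2 in each group). The differences from myoblasts were smaller, at −0.27 for myotubes (−0.51 to −0.03, adjusted p = 0.0493) and 0.29 for reserve cells (0.06 to 0.53, adjusted p = 0.0470).

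The difference between myotubes and reserve cells in Six4 was called under each of 14 alternatives. Both calls against myoblasts were close to the threshold and ended under 8 of 14, among them DESeq2 and RLE factors in place of TMM. The call in myotubes also ended with only the 4 libraries compared. That in reserve cells also ended under library totals and without the filter on low counts. For myotubes against myoblasts the call ended without either myoblast library, without myotube library 1 or without either reserve cell library, with log2 fold changes of −0.13 to −0.30 and adjusted p of 0.0562 to 0.245. The lowest of these sizes, −0.13, came without myotube library 1. For reserve cells against myoblasts it ended without any single library of those groups, with values of 0.24 to 0.34 and adjusted p of 0.0837 to 0.196.

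Six5, the other member of the Six4 and Six5 subfamily, lies directly downstream of Dmpk, the myotonic dystrophy kinase gene, in the same orientation (chr7:19094594-19098549, plus strand, GRCm38). Its level was low, at 4.32 and 6.09 CPM in myoblasts, 1.78 and 1.57 in myotubes, and 5.70 and 4.97 in reserve cells, which rest on 25 to 132 counts per library. The myotubes lay below both other groups, and myoblasts and reserve cells overlapped. Six5 fell by 1.64 on the log2 scale from myoblasts to myotubes (95% interval −2.37 to −0.91, adjusted p = 0.00183 in edgeR) and was lower than in reserve cells at −1.67 on that scale (−2.40 to −0.94, adjusted p = 0.00214). Reserve cells and myoblasts did not differ beyond their spread, with a log2 fold change of 0.03 (−0.63 to 0.70, adjusted p = 0.938). The interval leaves room for a change of either sign at this depth.

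Its neighbours took another course. Dmpk was at 145 and 158 CPM in myoblasts, 536 and 480 in myotubes, and 265 and 248 in reserve cells, a rise in myotubes against myoblasts of 1.75 on the log2 scale (SE 0.07, adjusted p = 1.0e-07 in edgeR). Dmwd, the next gene on the other side of Dmpk, rose in myotubes by 0.51 on the log2 scale (SE 0.07, adjusted p = 3.4e-04). Against myoblasts, reserve cells were higher in Dmpk, at a log2 fold change of 0.76, and lower in Dmwd, at −0.27 (adjusted p = 0.0184). Near Six4 lies Mnat1 (chr12:73123717-73273988), which encodes a subunit of the CDK-activating kinase. Its log2 fold change in myotubes against myoblasts was 0.16 and did not pass (adjusted p = 0.175). Trmt5, a tRNA methyltransferase gene, lies farther from Six4, beyond Mnat1 (chr12:73280011-73286710). It fell in myotubes against myoblasts by 0.66 on the log2 scale (adjusted p = 0.0033).

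The coding sequences of Six4 and Six5 are most alike over the stretch below, which is shown because it measures how far reads of these genes can be told apart. It is the ungapped window of 120 bases with the most identical bases, from the first coding exon of each gene in GENCODE M21 transcripts, and capitals mark the positions that differ. The window lies where the conserved domain meets the homeodomain, at chr12:73112510-73112629 (minus strand) in Six4 and chr7:19095126-19095245 (plus strand) in Six5.
Six4: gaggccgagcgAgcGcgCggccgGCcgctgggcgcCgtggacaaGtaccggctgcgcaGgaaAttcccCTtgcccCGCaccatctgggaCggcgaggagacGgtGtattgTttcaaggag
Six5: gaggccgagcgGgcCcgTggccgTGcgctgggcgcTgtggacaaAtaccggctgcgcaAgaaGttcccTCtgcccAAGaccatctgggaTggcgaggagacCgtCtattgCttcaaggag
They share 102 of 120 bases, or 85.0%, in this most similar window.

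Eya1, a coactivator with a role in muscle, kidney and ear development, lies on chromosome 1 (chr1:14168954-14310235, minus strand, GRCm38). It was at 26.5 and 28.8 CPM in myoblasts, 9.03 and 11.1 in myotubes, and 21.03 and 19.9 in reserve cells. The groups did not overlap and reserve cells lay between the others. Eya1 fell by 1.46 on the log2 scale in myotubes (95% interval −1.78 to −1.14, adjusted p = 2.5e-05 in edgeR), to 36.4% of the myoblast level, and was also lower than in reserve cells (−1.02, −1.35 to −0.70, adjusted p = 3.4e-04). Both calls held under each of 14 alternatives. The smaller decrease in reserve cells, −0.43 (−0.74 to −0.13, adjusted p = 0.0270), was lost when any single library of myoblasts or reserve cells was left out, with values of −0.38 to −0.50 and adjusted p of 0.0625 to 0.144.

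Eya2, a coactivator described in muscle precursors and in tumours, had counts in myoblasts only (chr2:165595032-165771727, plus strand, GRCm38). The myoblast libraries held 26 and 36 counts, or 1.52 and 1.66 CPM, and each of the other 4 libraries held 0. Taking 3 counts over the group as the limit that 0 allows, Eya2 was at least 16.6-fold lower in myotubes (adjusted p = 0.00192 in edgeR) and at least 20.8-fold lower in reserve cells (adjusted p = 0.00257), and both calls held under each of 13 alternatives. Between myotubes and reserve cells no fold can be given. These limits cover counting error only. Eya2 passed the filter on low counts only through the myoblasts, where it is high, so it had to differ. Its p-values therefore add no support of their own, and the alternatives share that filter or use none.

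Eya3, another coactivator of the family, did not pass the test in any comparison (chr4:132638987-132724765, plus strand, GRCm38). It was at 61.8 and 62.9 CPM in myoblasts, 66.4 and 69.9 in myotubes, and 63.3 and 65.2 in reserve cells. All 6 libraries lay within a narrow range, with the myotubes at its upper end. The log2 fold change was 0.13 for myotubes against myoblasts (95% interval −0.03 to 0.29, adjusted p = 0.140 in edgeR), 0.04 for reserve cells against myoblasts (−0.12 to 0.20, adjusted p = 0.647) and 0.08 for myotubes against reserve cells (−0.08 to 0.24, adjusted p = 0.335). Under library totals the 3 values changed sign and still did not pass the test, so no direction is given for Eya3.

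Eya4, a coactivator gene known from inherited deafness and cardiomyopathy, lies on chromosome 10 (chr10:23102963-23350786, minus strand, GRCm38). It was at 82.0 and 84.3 CPM in myoblasts, 72.5 and 77.3 in myotubes, and 93.7 and 98.6 in reserve cells. The groups did not overlap, with reserve cells highest. Myotubes were lower than reserve cells (log2 fold change −0.36, 95% interval −0.52 to −0.20, adjusted p = 0.00272 in edgeR), a call that held under each of 14 alternatives. Against myoblasts, myotubes had a log2 fold change of −0.15 that did not pass (−0.31 to 0.01, adjusted p = 0.0959), and under library totals it was −0.43 and passed (adjusted p = 0.000682), where the median gene moved to −0.27. Reserve cells were higher than myoblasts by 0.21 on the log2 scale (0.05 to 0.37, adjusted p = 0.0395), a call that ended under library totals, without the filter on low counts, and without any single library of these groups. With a library of these groups left out, values of 0.17 to 0.24 had adjusted p of 0.0711 to 0.175.

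**Figure D2:**
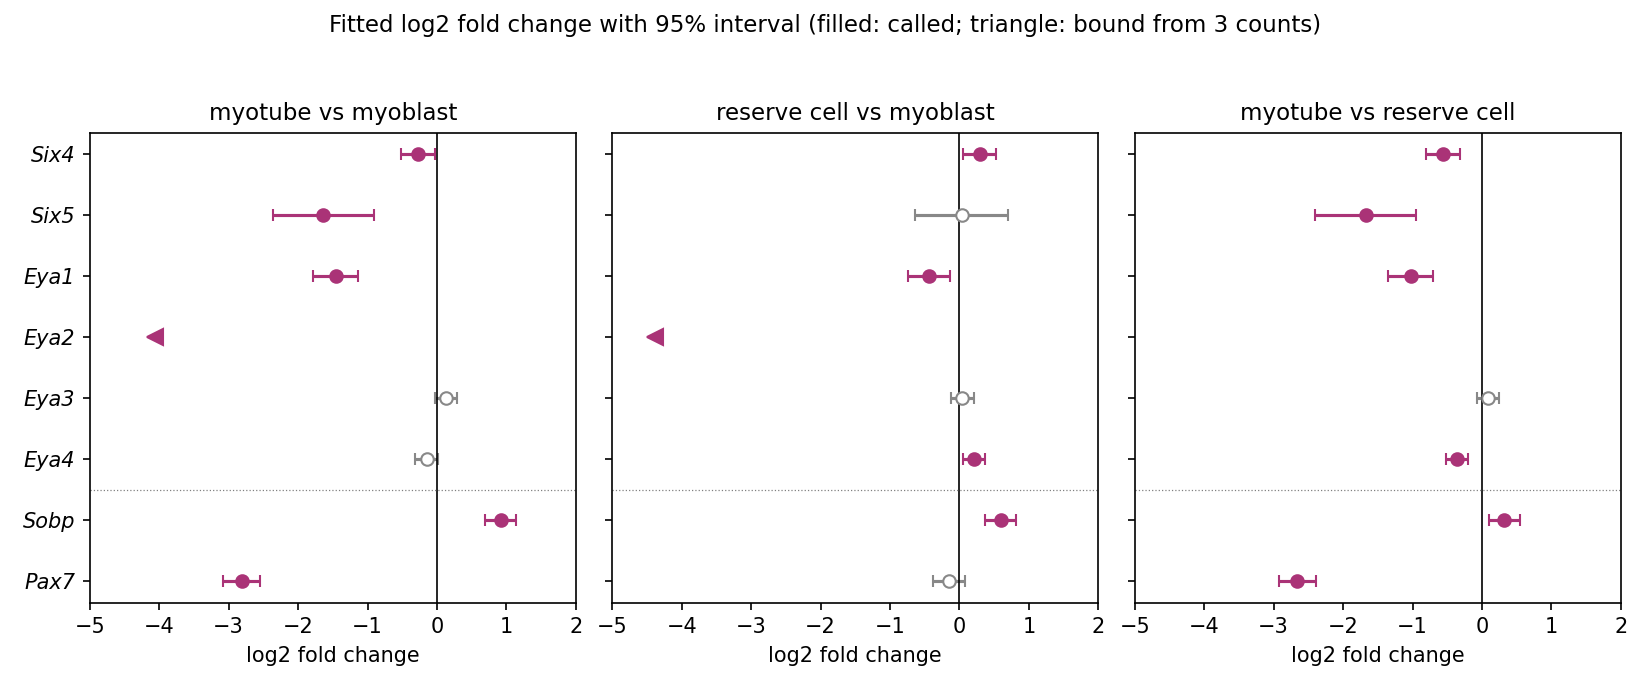
Fitted log2 fold changes with 95% intervals for the 6 members (above the dotted line) and for Sobp and Pax7, in the 3 comparisons. Filled points passed the test and open points did not. The triangles for Eya2 are bounds from 3 counts over the group at 0, and no point is drawn where both groups were at 0. Six5, Eya1 and Eya2 show the largest decreases of the members in myotubes.

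Levels can be set against each other between genes only per length, as TPM, which are counts divided by transcript length and scaled to the same total in each library. In myoblasts the order was Eya4 (42.9 to 43.9 TPM), Eya3 (31.0 to 32.7), Six4 (23.6 to 24.2), Eya1 (17.2 to 18.3), Six5 (3.55 to 5.01) and Eya2 (1.53 to 2.12), with no overlap between neighbours. In reserve cells the order was the same and no neighbours overlapped, with Eya4 at 50.5 to 53.5 TPM. In myotubes Eya3 (28.9 to 34.8 TPM) and Eya4 (28.4 to 29.3) overlapped, above Six4 (13.2 to 16.5), Eya1 (4.12 to 6.52) and Six5 (0.974 to 1.09). A count on a short transcript adds more TPM than a count on a long one. Eya3-207, a transcript of 1138 bases beside 5160 for Eya3-203, had 56 and 129 counts in myotubes and 10 and 26 in myoblasts. The place of Eya3 in myotubes therefore depends in part on the counts given to Eya3-207, and the order without that transcript was not tested.

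By TPM, which carry no TMM factor, the summed level of the 4 Eya genes was 93.55 and 96.03 in myoblasts, 61.5 and 70.6 in myotubes, and 98.1 and 101.8 in reserve cells. Myotubes lay below the other groups. Eya1 gave 18.4% and 19.0% of the summed TPM of the 4 Eya genes in myoblasts, 6.70% and 9.24% in myotubes, and 12.4% and 11.8% in reserve cells. Eya3 gave 33.1% and 34.1%, then 47.0% and 49.3%, then 36.1% and 35.6% in the same order of groups. The groups did not overlap in either share. The larger share of Eya3 in myotubes goes with the smaller sum, as its own mean level was 31.8 TPM in myoblasts and 31.9 in myotubes. That level in myotubes depends in part on the counts given to the short transcript Eya3-207. So do the Eya sum and the shares, and none of these was computed without that transcript. The ratio of Six4 to Six5 in TPM was 6.83 and 4.71 in myoblasts, 12.1 and 17.0 in myotubes, and 6.03 and 7.42 in reserve cells. With 2 libraries in a group, an exact two-sided permutation test of such a value cannot go below p = 0.333, so these shares and ratios are descriptions.

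The 4 Eya genes share their exon structure at the end that encodes the Eya domain. Counted back from the stop codon in the transcript of each gene with the most counts, the last 8 coding exons have the same lengths in all 4, namely 78, 101, 122, 115, 161, 59, 90 and 84 bases, or 810 in total. Over these bases the genes are 66.0% to 75.8% identical, and over the coding sequence before them 45.2% to 58.8% in gapped alignments. Eya4 is annotated with 2 forms of the exon of 101 bases, which lie 38 bases apart on chromosome 10, and 0 annotated transcripts hold both. Eya4-201 and Eya4-208 hold one form, and Eya4-202 and Eya4-206 the other.

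These exons are shown because the transcripts that hold them took unequal shares of Eya4 in the groups. All are from GENCODE M21 transcripts on GRCm38, and capitals mark the 30 positions at which the 2 Eya4 forms differ, in each sequence. The Eya4 forms lie at chr10:23109971-23110071 and chr10:23109832-23109932 (minus strand), and the exons of the other genes at chr1:14179480-14179580 (Eya1, minus strand), chr2:165769225-165769325 (Eya2, plus strand) and chr4:132719212-132719312 (Eya3, plus strand).
Eya4-201 and Eya4-208: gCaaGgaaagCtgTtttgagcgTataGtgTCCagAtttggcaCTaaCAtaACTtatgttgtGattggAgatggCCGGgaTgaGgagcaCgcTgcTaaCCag
Eya4-202 and Eya4-206: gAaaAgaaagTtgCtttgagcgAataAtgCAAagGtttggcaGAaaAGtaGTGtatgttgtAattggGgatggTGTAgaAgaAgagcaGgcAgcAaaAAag
Eya1: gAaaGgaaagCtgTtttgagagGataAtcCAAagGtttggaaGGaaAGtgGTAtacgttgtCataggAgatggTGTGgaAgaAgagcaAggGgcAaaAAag
Eya2: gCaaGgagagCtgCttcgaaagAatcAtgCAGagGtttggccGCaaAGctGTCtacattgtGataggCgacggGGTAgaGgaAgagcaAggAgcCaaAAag
Eya3: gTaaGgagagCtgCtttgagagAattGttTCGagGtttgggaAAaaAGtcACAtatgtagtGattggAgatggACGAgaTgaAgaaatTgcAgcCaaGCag
The 2 Eya4 forms share 71 of 101 bases, or 70.3%. The form in Eya4-202 and Eya4-206 shares 82.2% with Eya1 and 75.2% with Eya2, against 68.3% and 61.4% for the other form. With Eya3 the order is the opposite, at 69.3% against 73.3% for the form in Eya4-201 and Eya4-208.

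The transcripts with the Eya3-like form took a smaller share of Eya4 in myotubes. Eya4-201 and Eya4-208 together held 362 and 330 Eya4 counts in myoblasts, 56 and 49 in myotubes, and 514 and 373 in reserve cells. As shares of the Eya4 counts these are 25.8% and 18.1%, then 5.49% and 3.69%, then 27.7% and 19.6%. The widest 95% Wilson interval among these libraries ran from 23.6% to 28.1% in a myoblast library, and the interval covers counting error only. Both myotube libraries lay below the other 4, myoblasts and reserve cells overlapped, and the exact two-sided permutation test gave p = 0.333 for myotubes against either group, the smallest it can give with 2 libraries against 2.

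At the level of single transcripts, 39 member transcripts were in the files, 29 had a count and 14 passed the filter. Between myotubes and myoblasts 3 were called (Eya4-206 and Eya3-207 higher, Eya2-202 lower), beside 20.2% of the 35501 transcripts tested, 10.3% as higher and 9.88% as lower. Eya4-206 was also the only 1 called between reserve cells and myoblasts, beside 7.38% of all transcripts (4.54% higher, 2.84% lower), and Eya4-201 the only 1 between myotubes and reserve cells, beside 10.7% (4.80% higher, 5.90% lower). Eya4-201 had 278 and 134 counts in myoblasts, 27 and 45 in myotubes, and 317 and 326 in reserve cells. Its log2 fold change in myotubes was −2.85 against reserve cells (SE 0.56, adjusted p = 0.0487 in edgeR) and −2.32 against myoblasts (SE 0.55, adjusted p = 0.0511). The call against reserve cells held under 3 of 8 alternatives and ended without the filter and without either myotube library or either reserve cell library (adjusted p up to 0.203). The Eya2-202 call in myotubes against myoblasts (adjusted p = 0.0443 in edgeR) held under 1 of 8 alternatives, library totals. It ended without the filter and without any single library. With 0 counts in both day 7 groups, Eya2-202 passed the filter only through the myoblasts, where it is high. Eya4-202, the transcript with the most counts, did not pass in any comparison, with log2 fold changes of −0.05, −0.01 and −0.04 (SE 0.14). In simulated data the test recovered at most a minority of the changed transcripts at any fold size, so a transcript that was not called is not shown to be stable.

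Eya4-206 carries a further coding exon of 69 bases, a whole number of codons, that the other tested Eya4 transcripts lack. The exon lies at chr10:23171626-23171694 (minus strand, GRCm38) and is shown in full.
Eya4-206 exon: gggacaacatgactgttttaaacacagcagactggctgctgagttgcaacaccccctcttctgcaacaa
Eya4-206 had 0 and 0 counts in myoblasts, 129 and 104 in myotubes, and 113 and 168 in reserve cells. All 4 day 7 libraries held it at 6.09% to 12.6% of the Eya4 counts and the myoblast libraries gave it 0 of 1405 and 1828. No upper limit on its share in myoblasts is given, since reads in exons shared between transcripts cannot show which one they came from. Against 3 counts over the myoblast group it was at least 96.5-fold higher in myotubes (adjusted p = 0.00635 in edgeR) and at least 92.9-fold higher in reserve cells (adjusted p = 0.0150), bounds that cover counting error only and not how counts were divided between transcripts. With 0 counts in myoblasts, Eya4-206 passed the filter through the day 7 groups in which it is high, so it had to differ, and the p-values add no support of their own. The call in myotubes held under each of 8 alternatives, which share that filter or use none. The call in reserve cells ended without any single myotube or reserve cell library (adjusted p up to 0.0976), although each reserve cell library holds over 100 of these counts. Myotubes and reserve cells did not differ beyond their spread, with a log2 fold change between them at 0.08 (SE 0.47, adjusted p = 0.947).

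**Figure D3:**
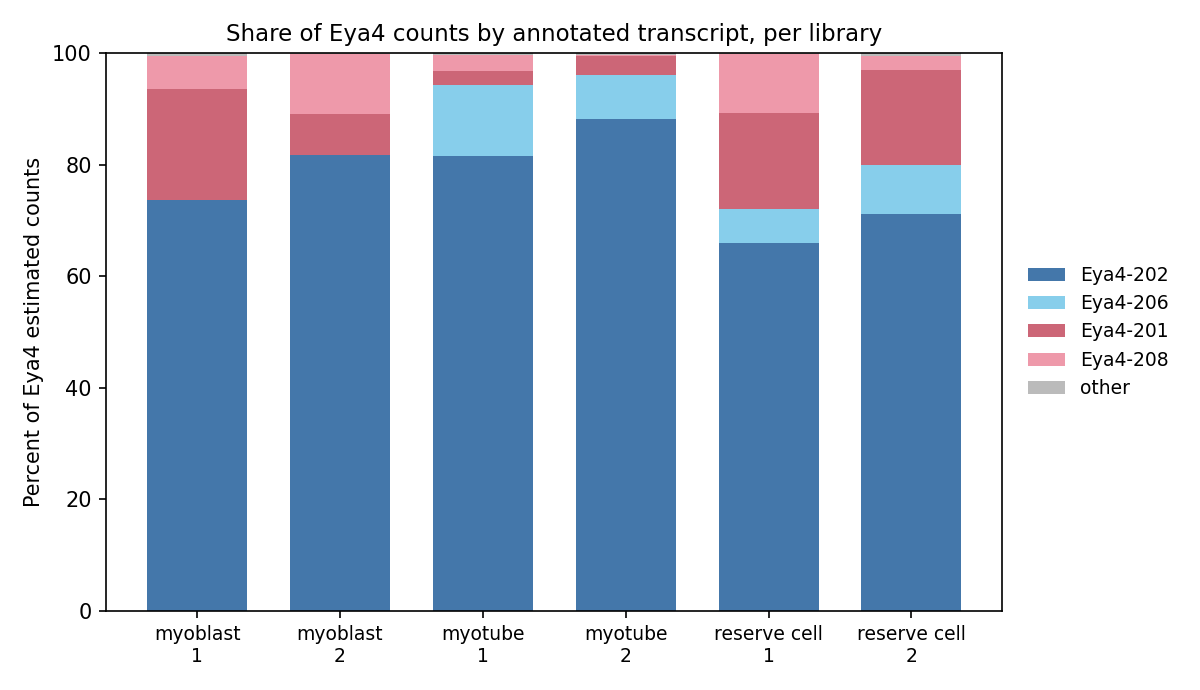
Share of the Eya4 estimated counts given to each annotated transcript, in percent, with 1 bar per library. Blue shades are transcripts with 1 form of the exon of 101 bases and red shades those with the other form. The red shades sum to 5.49% and 3.69% in myotubes and to at least 18.1% elsewhere, and Eya4-206 (light blue) is at 0 in both myoblast libraries.

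Other member transcripts were less even between replicates. Eya3-207, which holds an exon of 138 bases that Eya3-203 lacks and is annotated without the later exons, had 10 and 26 counts in myoblasts, 56 and 129 in myotubes, and 62 and 51 in reserve cells. Its log2 fold change between myotubes and myoblasts was 2.65 (SE 0.63, adjusted p = 0.0498), a call that ended under each of 8 alternatives (adjusted p from 0.0590 to 0.191). Eya3-203 held 79.3% to 98.0% of Eya3 counts in the 6 libraries, and Eya3-202, which did not pass the filter, had 136 counts in myotube library 1 and 0 to 3 in each other library. Within Eya1 the replicates disagreed, since Eya1-201 had 9 and 91 counts in the myotube libraries and Eya1-203 had 115 and 17, and edgeR called 0 Eya1 transcripts. At an unadjusted p under 0.05, 1 passed in edgeR, Eya1-201 between myotubes and myoblasts, where its adjusted p was 0.147. Six4-201 held 93.8% to 95.6% of Six4 counts in every library. Annotated transcripts also differ at their ends, and reads in shared exons are divided by the authors' assembly program, so a share of an exon and a share of an end cannot be told apart here.

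Of the rest of the pathway, a list of 8 genes holds Six2, Six3 and Six6, Dach1, Dach2, the cofactor gene Sobp, and Pax3 and Pax7, which work beside the pathway in muscle precursors. Six3, Six6, Dach1 and Dach2 had 0 counts in all 6 libraries, Six2 had 8 counts in all and Pax3 had 9, so 2 genes were tested, Sobp and Pax7. Of these, 1 was higher and 1 lower in myotubes than in myoblasts, likewise in myotubes than in reserve cells, and 1 was higher and 0 were lower in reserve cells than in myoblasts.

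Sobp was at 16.9 and 17.3 CPM in myoblasts, 31.9 and 32.5 in myotubes, and 26.2 and 25.4 in reserve cells, with log2 fold changes of 0.92 in myotubes (SE 0.10, adjusted p = 5.1e-05) and 0.60 in reserve cells (SE 0.10, adjusted p = 0.00133). Its call between myotubes and reserve cells, at 0.32 (adjusted p = 0.0208), ended under library totals. Pax7, the satellite cell factor, was at 72.9 and 68.3 CPM in myoblasts, 8.75 and 11.2 in myotubes, and 61.3 and 65.5 in reserve cells. It fell by 2.81 on the log2 scale in myotubes (SE 0.12, adjusted p = 1.3e-07), and reserve cells did not pass the test against myoblasts (−0.15, adjusted p = 0.243).

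Muscle genes known as targets of sine oculis factors, a list of 18 with 18 tested, were 16 higher and 2 lower in myotubes than in myoblasts, 14 higher and 3 lower in reserve cells than in myoblasts, and 16 higher and 2 lower in myotubes than in reserve cells. In the same order, 65.3%, 46.1% and 55.6% of all genes tested were called, 32.6%, 24.3% and 27.2% as higher. The median log2 fold changes of the list were 6.97, 4.29 and 2.22, beside 0.00, 0.01 and −0.01 over all genes tested. Under library totals 15 in place of 16 were higher in the comparisons of myotubes with myoblasts and with reserve cells. The list shares Ckm and Tnnt3 with the myotube markers. It also holds Myh1, Myh2, Myh4, Tnni2 and Tnnc1, myosin and troponin genes of the same kind as several of those markers.

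Among the targets with the smallest adjusted p, Mef2c, a transcription factor of differentiated muscle, was at 1.05 and 0.968 CPM in myoblasts, 1173 and 1210 in myotubes, and 237 and 248 in reserve cells. Tnnt3, a fast troponin gene, was at 12.3 and 11.3, then 3519 and 3421, then 704 and 713 CPM in the same order. Atp2a1, the calcium pump of fast fibres, and Myh1, a fast myosin heavy chain gene, had log2 fold changes of 6.31 (SE 0.05, adjusted p = 1.9e-11 in edgeR) and 9.82 (SE 0.09, adjusted p = 3.3e-11) in myotubes against myoblasts. Between myotubes and reserve cells, Eno3, the muscle enolase gene, was higher in myotubes by 1.92 on the log2 scale (SE 0.04, adjusted p = 8.8e-09). Myf5 and Met, both genes of muscle precursors and chosen after their values were seen, were the 2 that fell in myotubes, by 2.89 and 2.29 on the log2 scale (SE 0.12 and 0.07). Of the 6 members, by contrast, all but Eya2 stayed within a log2 range of −1.64 to 0.13 in myotubes against myoblasts. Eya2 lay outside that range, as it was at least 16.6-fold lower in myotubes, a bound from 3 counts.

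**Figure D4:**
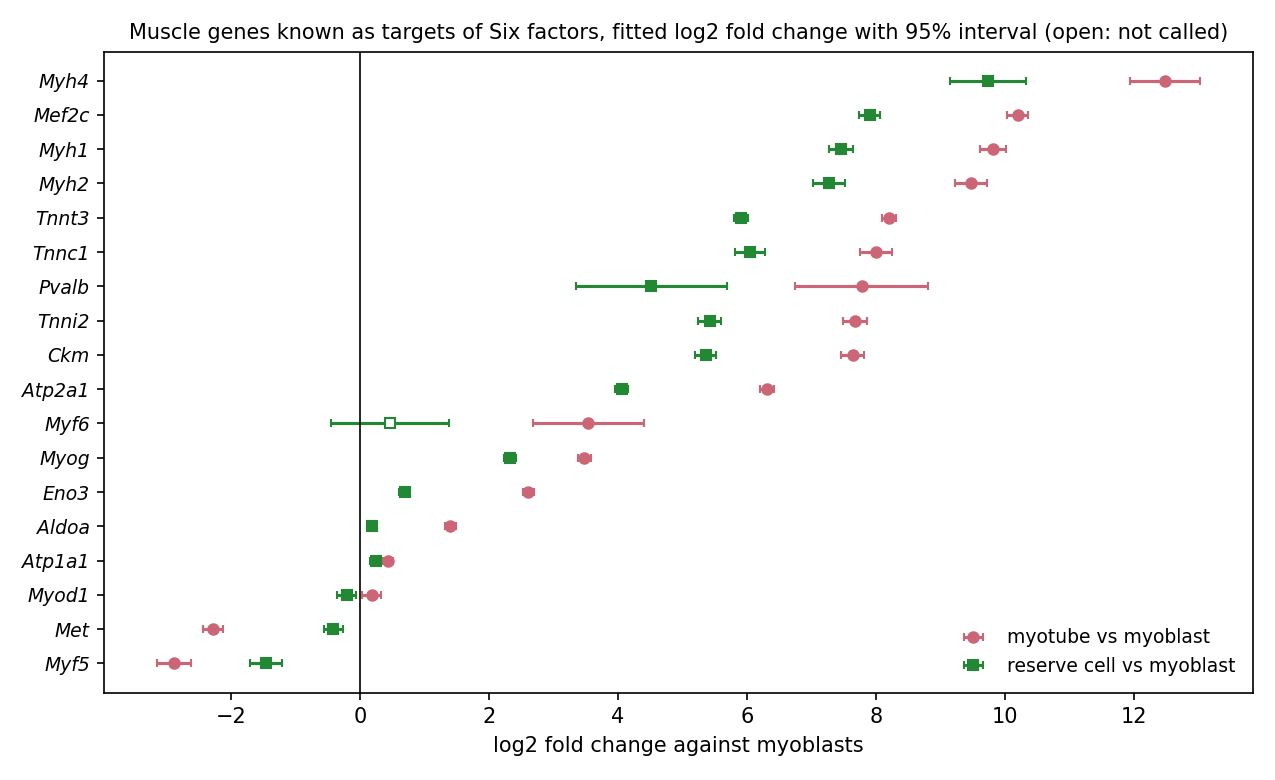
Fitted log2 fold changes with 95% intervals of 18 muscle genes known as targets of sine oculis factors, for myotubes (circles) and reserve cells (squares) against myoblasts. Filled points passed the test. The median is 6.97 for myotubes and 4.29 for reserve cells, and Myf5 and Met lie below 0 in both.

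The MEF3 core TCAGGTT, searched on both strands from 250 bases before to 50 after the start of each gene in RefSeq on GRCm38.p6, was in 4.07% of 32851 promoters. Promoters were available for 4 of the 6 members (Six4, Six5, Eya3 and Eya4). Of these, 1 of 2 Six4 promoters held a match, and those of Six5, Eya3 and Eya4 held 0. Of the 18 listed targets, 13 had a promoter and 2 held a match, Myog and Mef2c. The Mef2c match lay in 1 of its promoters and not in the others. Several targets have more than 1 promoter, so this count of genes cannot be set directly beside the share of all promoters. The bases around the match are printed for Six4, the member that holds one, and for Myog, the myogenic factor gene, with the motif in capitals on the strand of the gene. The Six4 promoter with the match is chr12:73113196-73113495 (minus strand), where the motif reads on the opposite strand. It begins 97 bases before the start to which that promoter belongs, at a place inside the Six4 gene as given above. The Six4 promoter without a match, chr12:73113376-73113675, belongs to a start further upstream. The Myog promoter is chr1:134289754-134290053 (plus strand), where the motif begins 84 bases before the start.
Six4: ggcctgggggaAACCTGAtcggccagatc
Myog: tagaggggggcTCAGGTTtctgtggcgtt
Myog was at 106 and 101 CPM in myoblasts, 1162 and 1144 in myotubes, and 521 and 514 in reserve cells, and Six4 at the levels given above. A match describes these letters and is not by itself a bound site.

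The Groucho (Tle) genes with Aes, Ski and Skil were measured for 8 of 9 listed names. The other name, Tle5, was not a symbol in the annotation used, so its absence does not show an unexpressed or unmeasured gene. Of these, 2 were higher and 5 lower in myotubes than in myoblasts, and 3 higher and 2 lower in reserve cells than in myoblasts. In myotubes against reserve cells, 2 were higher and 5 lower. Each of these counts moved by at most 1 under the other scalings. Over all genes tested, 65.3%, 46.1% and 55.6% were called in the same order of comparisons. The median log2 fold changes of the list were −0.375, −0.16 and −0.48, beside 0.00, 0.01 and −0.01 over all genes tested. Aes, a short Groucho-family protein, had a log2 fold change of 1.10 in myotubes against myoblasts (SE 0.04, adjusted p = 5.1e-08 in edgeR), and Tle1 one of −1.21 (SE 0.14, adjusted p = 7.5e-05). Tle3 was also lower in myotubes (−0.54, SE 0.07, adjusted p = 1.5e-04) and Tle4 higher (2.56, SE 0.34, adjusted p = 2.0e-04). In reserve cells against myoblasts, Ski and Skil, corepressors of Smad signalling that share a domain with Dach proteins, had log2 fold changes of 0.43 (SE 0.06, adjusted p = 6.1e-04) and 0.58 (SE 0.08, adjusted p = 4.4e-04), and Tle2 one of −0.66 (SE 0.14, adjusted p = 0.00458).

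The genes whose levels ran most like each member were found by Pearson's r of log2 CPM over the 6 libraries, among 9938 to 9939 other genes that averaged 10 CPM or more in some group. The libraries form 3 groups, so such an r mostly compares group means, and it is given as a description. For Six4 these were Dact1 (r = 0.999), Tlr4 (0.995) and Hoxc6 (0.988), and 71 genes had an r over 0.95. For Six5 they were Tubgcp6, Nle1 and Tax1bp3 (r from 0.996 to 0.998, 645 genes over 0.95), for Eya1 Smc1a, Vps13b and Pimreg (0.999 to 1.00, 1525 genes), and for Eya3 Bicd1, Atad2b and Mphosph8 (0.990 to 0.994, 82 genes). For Eya2 they were Prl2c3, Prl2c2 and Hhip (0.999 to 1.00, 419 genes), of which Prl2c2 and Prl2c3 are near-identical copies whose counts are uncertain. For Eya4 they were Dennd4a, Egfr and Hes1 (each 0.994 to 0.995, 192 genes). Among the members themselves, Six4 and Eya4 had the highest r (0.973), both being highest in reserve cells and lowest in myotubes, and Eya1 and Eya3 the lowest (−0.841). Every r with Eya3 rests on its TMM-scaled levels, whose uncalled differences between groups changed sign under library totals.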

How the data were processed

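RNA-seq of 6 C2C12 libraries (2 myoblast, 2 myotube, 2 reserve cell) was analysed from the deposited estimated counts per transcript, whole numbers that the authors made with HISAT2, SAMtools and StringTie on mm10. For these programs no version, and for the annotation no release, is given in the sources used here. The deposited table of the whole series was not used. Of 142604 transcripts, 141374 were paired with a gene through GENCODE M21 (GRCm38), and the 1230 others held 0.375% to 0.872% of a library. Estimated counts were summed by gene. A symbol with 2 identifiers was represented by the one with more counts.

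The test was edgeR's quasi-likelihood test (version 4.0.16, R 4.3.3) on all 6 libraries, after TMM scaling and edgeR's expression filter at a minimum count of 10. P-values were adjusted by Benjamini-Hochberg over all genes or transcripts tested, with a threshold of 0.05. The common biological coefficient of variation was 12.9%. The procedure was tested on simulated data, where recovery of changed genes rose with the fold change and was incomplete at small ones. At most 35.2% of the changed transcripts were recovered at any fold size. A fold against a group at 0 is a bound from 3 counts over the group. TPM were computed from counts and transcript lengths.

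Genes named are the 6 members, tested genes of the network list (1 gene that the rule also names is not reported here), the 4 with the smallest adjusted p per comparison of the target and Groucho lists, neighbours of Six4 and Six5, the 3 genes most like each member, and transcripts with at least 5% of their gene in a group. Members and lists were chosen with earlier results of these data known. Alternatives were DESeq2 1.42.0, RLE factors, library totals, no filter, 10 CPM in 2 libraries, the 4 libraries compared, a replicate block, leaving out each library, and leaving out mitochondrially encoded genes. Replicates differed by more than sampling noise (chi-square per degree of freedom 6.13 to 7.84), so none is a repeat deposit.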

Additional observations from a re-analysis of the deposited data

How the results depend on the processing

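Between myotubes and reserve cells, 4 members were lower under each of 14 alternatives except the filter at 10 CPM in 2 libraries, which left 4 members tested and 3 called. In myotubes against myoblasts the main count of 4 became 2 under the filter at 10 CPM, which drops Six5 and Eya2, 3 with DESeq2 or RLE factors, 5 with library totals, and 3 to 4 with a library left out. In reserve cells against myoblasts the main count of 4 became 2 with library totals or without a filter, and 1 to 4 with a library left out. Library totals turned the uncalled log2 fold changes of Eya3 to −0.15 in myotubes and −0.029 in reserve cells, both against myoblasts, and to −0.12 between the day 7 groups, and that of Six5 in reserve cells against myoblasts to −0.038. With a library left out the latter ran from −0.20 (without myoblast replicate 1) to 0.30 (without myoblast replicate 2). Called member transcripts in myotubes against myoblasts numbered 5 with library totals, 1 without a filter and 1 to 2 with a library left out, against 3. They numbered 0 to 1 with a library left out in reserve cells against myoblasts, and in myotubes against reserve cells 2 with library totals, 0 without a filter and 0 to 1 with a library left out. The causes were not tested, beyond the fewer libraries or genes in each fit. The replicate differences were correlated by 0.00218, 0.0404 and −0.0321 between groups, so no pairing by replicate number was seen. Such values cannot show that the samples were unpaired, since noise between libraries also lowers them. With the replicate number as a block the counts of called members stayed at 4, 4 and 4, with 9912, 6954 and 8383 genes called over all. The lowest counts behind the members were those of Six5, with 25 to 132 a library, and Eya2, with at most 36, and whether depth limits their values was not tested.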
